A study of Mus musculus with 16 samples.

Results

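The mouse genes for the inhibitors of cyclin-dependent kinases were followed together with the noncoding genes beside Cdkn2a. These were 9 genes of the 41214 in each count table: 4 of the INK4 family (Cdkn2a, Cdkn2b, Cdkn2c and Cdkn2d), 3 of the CIP/KIP family (Cdkn1a, Cdkn1b and Cdkn1c) and 2 noncoding genes (Gm12609 and Gm12610). They were chosen by symbol, with earlier expression results of these same libraries in view. Which values decided the choice is not recorded, so the levels and differences of the 9 genes in every comparison are given as a description. Where test calls among them are counted, nothing is read from the calls.

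RNA was sequenced from T cell acute lymphoblastic leukaemia (T-ALL) of 16 C57Bl6 mice, 1 library per mouse, in 8 groups of 2 mice. ICN, the activated intracellular part of Notch, induced 12 of the leukaemias. With ICN and wild-type p53, the groups were Miz1 wt, Miz1 deltaPOZ with the suffix Lck and Miz1 deltaPOZ with the suffix Vav. The same 3 Miz1 groups with ICN also existed with p53 ko. Without ICN, all mice were p53 ko, and were either Miz1 wt or Miz1 deltaPOZ with the suffix Vav. In total 6 mice had Miz1 wt and 10 had deltaPOZ, and 6 had p53 wt and 10 had p53 ko. DeltaPOZ is a Miz1 protein without its POZ domain, which Miz1 (gene Zbtb17) needs to act as a transcription factor. Lck and Vav are not explained in the labels. Nothing in the labels gives the organ sampled, the age or sex of the mice, or how p53 was removed. No leukaemia without ICN had p53 wt, so the p53 comparison was made only with ICN and the ICN comparison only with p53 ko.

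INK4 proteins bind CDK4 and CDK6 and keep them from pairing with D-type cyclins, which leaves the retinoblastoma protein active and E2F targets off. CIP/KIP proteins bind a wider range of cyclin-CDK complexes, above all those with CDK2. Cdkn2a is unusual in that separate start sites give unrelated proteins: p16Ink4a is an INK4 inhibitor, and p19Arf binds Mdm2 and so stabilises p53. Active p53 in turn switches on Cdkn1a, which encodes p21Cip1, and is known to hold Cdkn2a down. Polycomb proteins silence the Cdkn2a and Cdkn2b locus in normal progenitors, and the locus is often deleted in T-ALL. Miz1 is known to activate Cdkn1a and Cdkn2b, and Myc bound to Miz1 turns that into repression.

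The start regions of the locus on chromosome 4 are shown because Cdkn2a, Cdkn2b and both noncoding genes were higher together with p53 ko in leukaemias with ICN. Each line holds the 250 bases before a RefSeq start site, 5′ to 3′ on the strand of the gene, from RefSeq on GRCm38.p6. Capitals mark exact matches to an E2F motif (TTTCCCGC, TTTCGCGC, TTTGCCGC or TTTGGCGC) or a GC box (GGGCGG), searched on both strands.
Cdkn2a, p19Arf start, chr4:89294620-89294869, minus strand: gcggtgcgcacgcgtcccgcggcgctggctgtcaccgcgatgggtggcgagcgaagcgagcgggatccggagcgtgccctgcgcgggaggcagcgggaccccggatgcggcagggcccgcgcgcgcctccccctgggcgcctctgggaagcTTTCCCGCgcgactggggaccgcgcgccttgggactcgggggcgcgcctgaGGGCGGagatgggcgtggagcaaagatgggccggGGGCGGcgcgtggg
Cdkn2a, p16Ink4a start, chr4:89282193-89282442, minus strand: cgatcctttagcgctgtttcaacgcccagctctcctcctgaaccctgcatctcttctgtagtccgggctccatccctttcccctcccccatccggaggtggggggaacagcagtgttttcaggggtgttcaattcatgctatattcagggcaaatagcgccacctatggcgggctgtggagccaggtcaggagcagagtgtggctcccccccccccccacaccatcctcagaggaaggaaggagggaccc
Gm12610, chr4:89294930-89295179, plus strand: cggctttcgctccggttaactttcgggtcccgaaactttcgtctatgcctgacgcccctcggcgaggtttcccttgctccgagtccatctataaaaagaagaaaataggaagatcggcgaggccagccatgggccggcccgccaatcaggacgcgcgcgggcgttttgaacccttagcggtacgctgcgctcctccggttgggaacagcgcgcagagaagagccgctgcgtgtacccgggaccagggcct
Cdkn2b, chr4:89311033-89311282, minus strand: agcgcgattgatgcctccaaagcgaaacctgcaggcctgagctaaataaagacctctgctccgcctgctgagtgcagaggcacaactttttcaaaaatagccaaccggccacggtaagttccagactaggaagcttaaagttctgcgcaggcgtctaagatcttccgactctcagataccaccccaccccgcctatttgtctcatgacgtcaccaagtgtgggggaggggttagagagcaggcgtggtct

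The window before the p19Arf start was 78.4% G and C and held 1 E2F match, 99 to 92 bases before the start, and 2 GC boxes. The windows before the p16Ink4a, Gm12610 and Cdkn2b starts held none of these letters. Over 32851 such windows in RefSeq, 1.86% held an E2F match and 32.742% a GC box. The E-box CACGTG, bound by Myc and Max, was in none of the 4 windows and in 6.021% of all. These matches are letters in a window, not shown binding sites. Of the 9 genes, 7 had a start region in RefSeq, with 10 windows between them. A GC box was also found before starts of Cdkn1a, Cdkn1b, Cdkn2c and Cdkn2d. Cdkn1c and Gm12609 were not matched.

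The p19Arf and p16Ink4a starts lie 12427 bases apart. The count tables give 1 value for the whole of Cdkn2a, so transcripts of both proteins cannot be told apart here. RefSeq has a single noncoding gene, Gm12610, at chr4:89295180-89518621 on the plus strand, with the synonyms ANRIL and Gm12609. It starts 561 bases from the p19Arf start, on the opposite strand. GENCODE M21, used for the other annotations, lists Gm12609 (chr4:89381957-89399880) and Gm12610 (chr4:89421848-89463487) as separate processed transcripts, both within that RefSeq gene. Their values may therefore be pieces of 1 transcript and are not independent of each other. Cdkn2a (chr4:89274471-89294653), Cdkn2b (chr4:89306299-89311039) and Cdkn2c (chr4:109660876-109667189) are on the minus strand of the same chromosome. Cdkn2d is at chr9:21288410-21291407, Cdkn1a at chr17:29090976-29100727, Cdkn1b at chr6:134920401-134925513 and Cdkn1c at chr7:143458339-143461050. In GENCODE, Cdkn1a shares 273 exon bases with AC167363.2 and Cdkn1c shares 625 with the antisense gene Gm44732, both on the opposite strand, so reads from them cannot be told apart without the strand setting of the counter.

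The libraries held 36463524 to 68523196 counts in genes. T cell markers were present in every library, for example Cd3e at 67.2 to 179 CPM (counts scaled to library size). Trp53, the gene removed in p53-ko mice, ranged from 70.2 to 113 CPM over 6 p53-wt libraries (median 92.8), from 14.0 to 30.6 over 6 p53-ko libraries with ICN (median 21.4) and from 7.32 to 21.8 over the 4 without ICN (median 17.0). The p53-ko libraries thus lay apart from the p53-wt libraries, although none reached 0. The log2 fold change between p53 ko and p53 wt with ICN was -2.06 (SE 0.24, adjusted p = 0.009, edgeR quasi-likelihood test with Benjamini-Hochberg adjustment). Counts of the whole Zbtb17 gene do not show whether its POZ domain is encoded, so they do not check the deltaPOZ label. Because these were bulk samples, fewer cells of a type and less RNA per cell cannot be told apart.

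Libraries with ICN held more RNA of erythroid and neutrophil marker genes. The summed level of 8 erythroid markers, globins among them, was 3809 to 21982 CPM in the 12 libraries with ICN and 2.15 to 37.6 CPM in the 4 without. For 8 neutrophil markers it was 53.4 to 898 CPM with p53 wt, 50.5 to 9052 CPM with p53 ko and ICN, and 0.474 to 1.53 CPM without ICN, where 2 of the 8 had 3 counts or fewer in all. The sum of 10 macrophage markers was 206 to 439 CPM with p53 wt, 327 to 1705 CPM with p53 ko and ICN, and 139 to 366 CPM without ICN. Of 7 NK and cytotoxic markers, 1 passed the edgeR test between p53 ko and p53 wt with ICN: Klrb1c, named after its value was seen, was lower with p53 ko, with a log2 fold change of -2.69 (SE 0.45) and an adjusted p of 0.0478. Of the 7, 4 had an unadjusted p under 0.05, and DESeq2 called 2 higher and 1 lower. Their summed level was 160 to 534 CPM with p53 wt and 97.9 to 445 CPM with p53 ko and ICN. By edgeR, 0 of the 10 macrophage and 0 of the 8 neutrophil markers passed in that comparison. At an unadjusted p under 0.05, 8 of each did, against 15.5% of all genes tested. DESeq2 also called 8 of each, all higher with p53 ko, and 1085 of all 17470 genes. These markers move with the p53 comparison below, and their part in it was not tested.

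In leukaemias with ICN, Cdkn2a was far higher in p53-ko than in p53-wt mice, and Cdkn2b, Gm12609 and Gm12610 were higher with it. Cdkn2a, which encodes p16Ink4a and p19Arf, was at 0.97 and 1.45 CPM in the Miz1 wt, 0.355 and 0.722 CPM in the Lck and 1.53 and 0.461 CPM in the Vav libraries with p53 wt. With p53 ko it was at 35.7 and 48.2 CPM in Miz1 wt, 61.9 and 22.6 CPM in Lck and 49.4 and 78.8 CPM in Vav. All 6 p53-ko libraries lay above all 6 p53-wt libraries. The p53-wt values were low but counted, with 18 to 80 reads in a library and 286 in all 6. The fitted log2 fold change was 5.81 (SE 0.44), which is 56.0-fold. It was 5.11 (SE 0.74) in Miz1 wt, 6.30 (SE 0.79) in Lck and 6.01 (SE 0.77) in Vav.

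Leaving out any single library kept the log2 fold change of Cdkn2a between 5.49 and 6.18. The Vav libraries with p53 ko and ICN, with Cdkn2a at 49.4 and 78.8 CPM, had macrophage sums of 327 and 394 CPM and neutrophil sums of 546 and 1556 CPM. In the Lck libraries, with Cdkn2a at 61.9 and 22.6 CPM, these were 1705 and 1276 CPM and 9052 and 6459 CPM. In Miz1 wt, with Cdkn2a at 35.7 and 48.2 CPM, they were 419 and 485 CPM and 3755 and 50.5 CPM. The p53-ko libraries without ICN, in which erythroid and neutrophil markers were near 0, had macrophage sums of 139 to 366 CPM. Their Cdkn2a was at 91.8 and 38.9 CPM in Miz1 wt and at 93.5 and 148 CPM in Vav. Whether these cells had a part in the level of Cdkn2a was not tested.

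**Figure D1:**
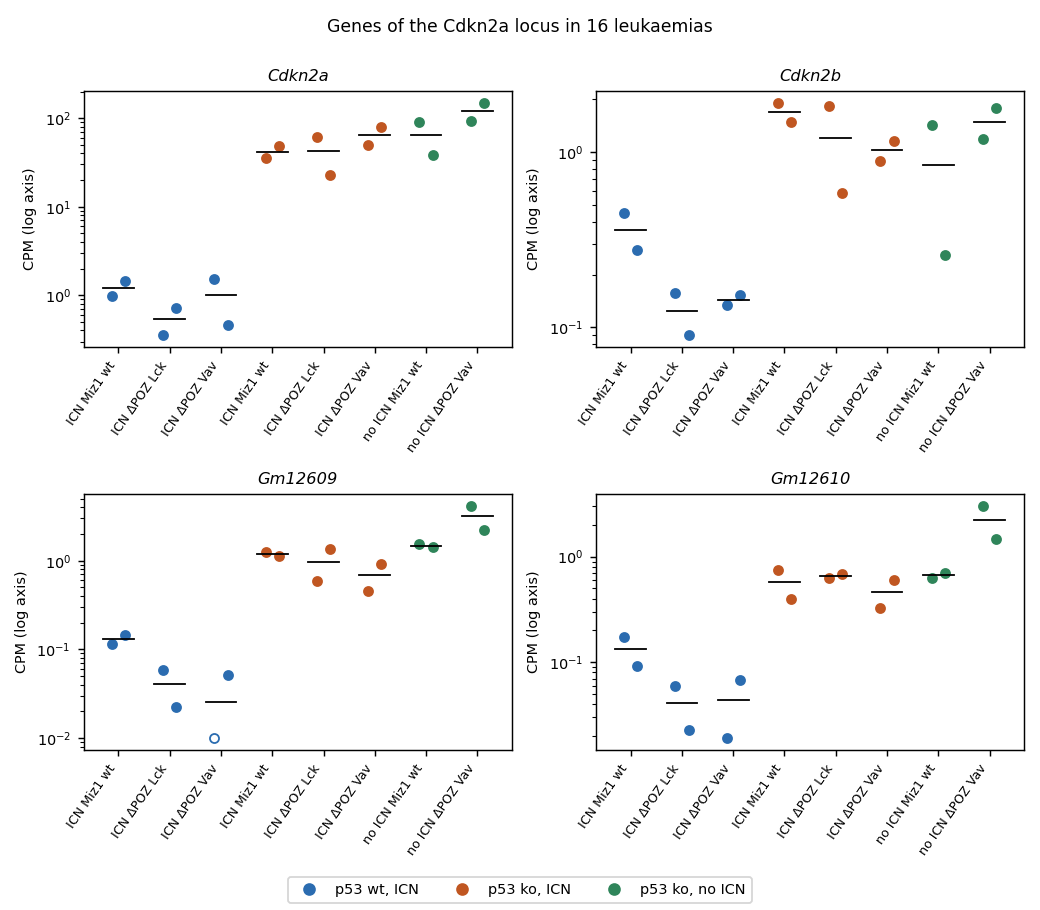
Levels of Cdkn2a, Cdkn2b, Gm12609 and Gm12610 in CPM (log axis) in the 8 groups of 2 mice. Each dot is a library and each bar the mean of a group. The open dot is a library with 0 counts, drawn at 0.01. All p53-ko libraries with ICN lie above all p53-wt libraries for each of the 4 genes.

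Cdkn2b, which encodes p15Ink4b, stayed low throughout. With p53 wt it was at 0.446 and 0.275 CPM in Miz1 wt, 0.158 and 0.0903 CPM in Lck and 0.134 and 0.153 CPM in Vav. With p53 ko it was at 1.90 and 1.49 CPM in Miz1 wt, 1.82 and 0.586 CPM in Lck and 0.891 and 1.15 CPM in Vav. The groups did not overlap, although only 2 of the 6 p53-wt libraries had at least 10 reads. Its fitted log2 fold change was 2.76 (SE 0.47), or 6.77-fold.

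Gm12609 had 0 to 8 reads in a p53-wt library, or 0 to 0.147 CPM. With p53 ko and ICN it was at 1.26 and 1.13 CPM in Miz1 wt, 0.586 and 1.37 CPM in Lck and 0.455 and 0.919 CPM in Vav. Its log2 fold change was 4.07 (SE 0.52). Gm12610 had 1 to 9 reads in a p53-wt library, or 0.0191 to 0.175 CPM. It was at 0.755 and 0.397 CPM in Miz1 wt, 0.631 and 0.686 CPM in Lck and 0.327 and 0.606 CPM in Vav with p53 ko. This gene gave a log2 fold change of 3.11 (SE 0.44). For both noncoding genes the p53-ko libraries lay above all p53-wt libraries. No p53-wt library reached 10 reads for either, so both passed the filter on low counts through the p53-ko groups alone, and their fold changes depend on how few reads are treated. In the Lck and Vav groups with p53 wt they rest on 0 to 4 reads a library.

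Of the other INK4 genes, Cdkn2c (p18Ink4c, an inhibitor in early lymphocytes) was modestly higher with p53 ko. It ranged from 109.9 to 137 CPM (median 119) with p53 wt and from 149 to 214 CPM (median 184) in the 6 p53-ko libraries with ICN, without overlap. The log2 fold change was 0.59 (SE 0.12), or 1.51-fold. Cdkn2d (p19Ink4d) was at 48.6 to 91.6 CPM (median 74.4) with p53 wt and 59.2 to 107 CPM (median 87.6) with p53 ko, and the groups overlapped. Its log2 fold change was 0.25 (SE 0.18).

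The CIP/KIP genes did not separate by p53. Cdkn1a, the textbook p53 target encoding p21Cip1, was low and variable, with groups that overlapped. With p53 wt it was at 0.699 and 1.17 CPM in Miz1 wt, 0.887 and 0.384 CPM in Lck and 1.11 and 0.972 CPM in Vav. With p53 ko it was at 1.93 and 9.01 CPM in Miz1 wt, 1.04 and 2.36 CPM in Lck and 0.436 and 0.501 CPM in Vav. It was thus higher with p53 ko in Miz1 wt and Lck and lower in Vav. The average log2 fold change was 0.94 (SE 0.59), and 0.41 without the Miz1 wt library at 9.01 CPM.

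Cdkn1b, which encodes p27Kip1, was at 154 to 234 CPM (median 181) with p53 wt and 101 to 238 CPM (median 149.5) with p53 ko and ICN, with a log2 fold change of -0.25 (SE 0.26). Cdkn1c, the imprinted gene for p57Kip2, was at 0.349 and 0.403 CPM in Miz1 wt, 0.177 and 0.339 CPM in Lck and 0.363 and 0.733 CPM in Vav with p53 wt. With p53 ko and ICN it was at 0.811 and 1.33 CPM in Miz1 wt, 0.36 and 0.909 CPM in Lck and 0.527 and 0.71 CPM in Vav. Cdkn1c overlapped between p53 groups, with a log2 fold change of 0.99 (SE 0.51). Across the 9 genes, 5 did not overlap between p53 groups with ICN and all 5 were higher with p53 ko, against 0.973% of all 17470 genes tested that were higher without overlap. By the edgeR test, 3 of the 9 were higher and 0 lower, against 0.195% of all genes tested in either direction. Leaving out single libraries gave log2 fold changes of 3.77 to 5.24 for Gm12609 and 2.91 to 3.475 for Gm12610. Because the genes were chosen with such results known, nothing is read from either share or from any call.

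**Figure D2:**
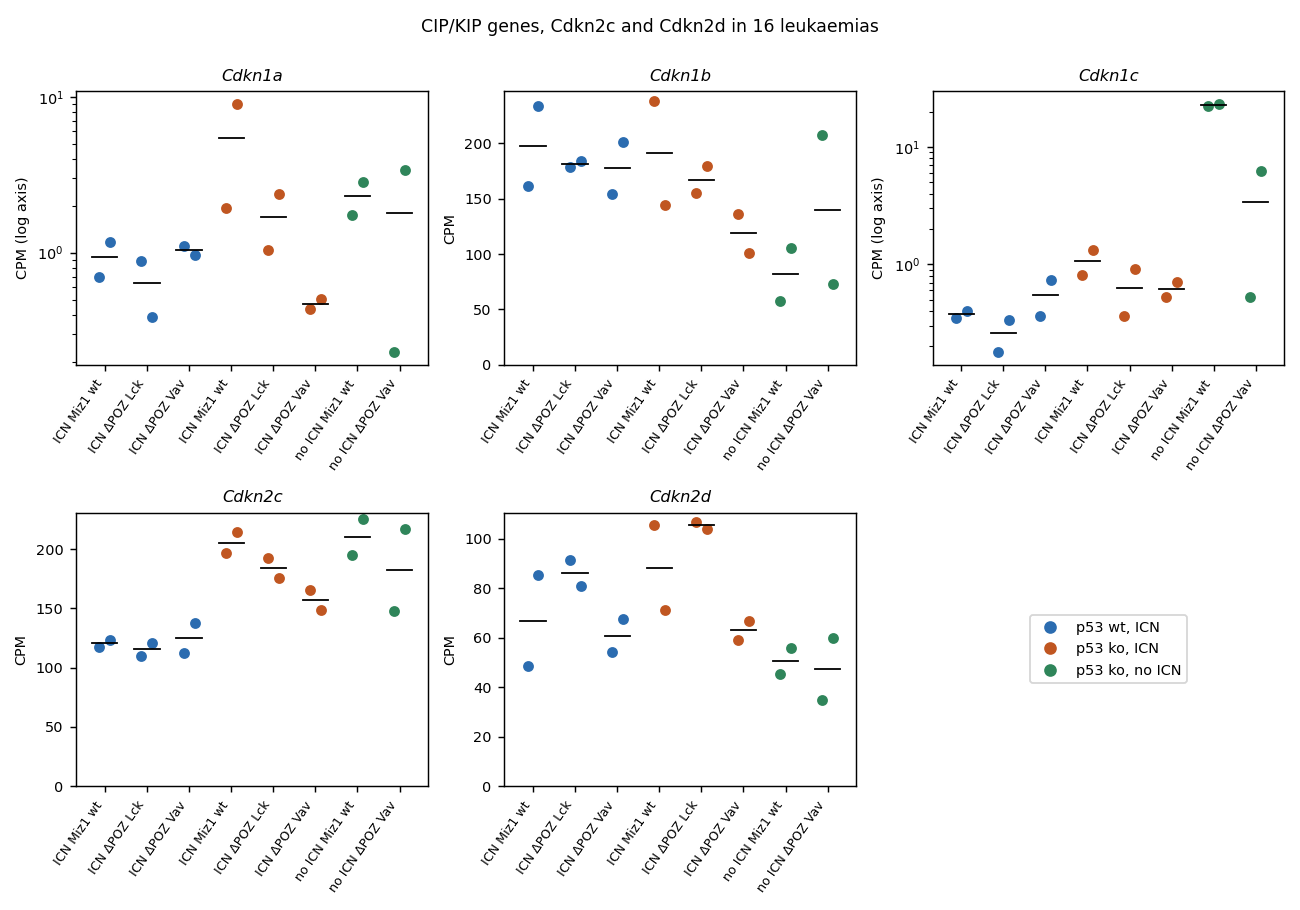
Levels in CPM of Cdkn1a, Cdkn1b, Cdkn1c, Cdkn2c and Cdkn2d in the 8 groups of 2 mice. The axes of Cdkn1a and Cdkn1c are logarithmic, the others start at 0. Cdkn1c stands high in both Miz1 wt libraries without ICN, at 22.2 and 23.4 CPM.

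Genes around the locus were measured in the same comparison. Of 67 genes in the tables within 1 Mb of Cdkn2a, 12 were tested and 21 had no read in any library. Mtap, a methionine salvage gene 93.39 kb away that is often lost with the locus, was at 49.8 to 76.0 CPM with p53 wt and 45.5 to 118 CPM with p53 ko and ICN. Its log2 fold change was 0.30 (SE 0.19, adjusted p = 0.475, edgeR quasi-likelihood test with Benjamini-Hochberg adjustment). Mtap and Cdkn2a had reads in every library, and whether copies of the locus were lost was not tested. The log2 fold change of Klhl9, a ubiquitin ligase adaptor, was -0.10 (SE 0.15), of Focad 0.43 (SE 0.15), of Hacd4 0.84 (SE 0.32) and of Gm26566 0.94 (SE 0.37), and none of them passed the test. Gm26566 overlaps Klhl9 in position, so their reads may not be separable.

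**Figure D3:**
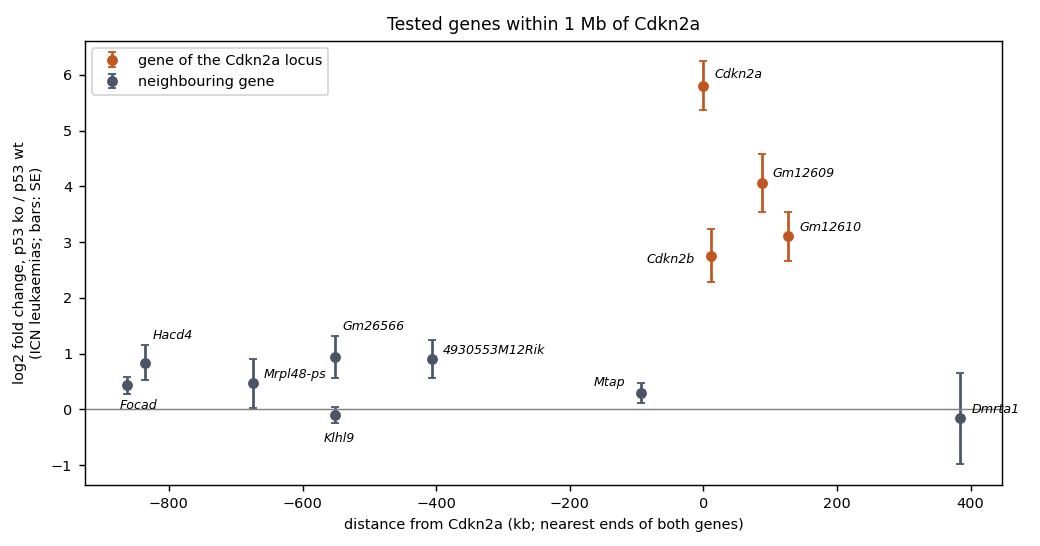
Log2 fold change between p53 ko and p53 wt (leukaemias with ICN, bars show the SE) of the 12 tested genes within 1 Mb of Cdkn2a, by distance in kb. The 4 genes of the locus stand between 2.76 and 5.81, and the 8 others between -0.16 and 0.94.

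Per kilobase of exon, the order of the genes was not the same with and without p53. With ICN and p53 wt, Cdkn2d (median 47.3 CPM per kb), Cdkn2c (44.4) and Cdkn1b (39.9) were the highest, with ranges that overlapped. Cdkn2a was far below them at a median of 0.722 CPM per kb, and the other 5 genes lay between 0.0905 and 0.262. With ICN and p53 ko, Cdkn2a reached a median of 41.7 CPM per kb, from 19.3 to 67.2. Its range overlapped those of Cdkn2d (median 55.6), Cdkn1b (32.9) and Cdkn2c (68.5). Without ICN, Cdkn2a (79.0) and Cdkn2c (76.8) were at the top and overlapped. Cdkn2b was at most 1.37 CPM per kb in every library, also where Cdkn2a was high.

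Lists of genes known to act with these inhibitors were looked at in the same comparison. They were drawn up with results of these data known, so their counts are descriptive. Over 8 lists, 113 of 116 genes were tested and 1, Trp53, passed the edgeR test between p53 ko and p53 wt. At an unadjusted p under 0.05 there were 17, and DESeq2 called 7. Over all genes tested, 15.5% had an unadjusted p under 0.05, and DESeq2 called 1085 of 17470. Of 21 p53 target genes tested, 0 passed, with 5 at an unadjusted p under 0.05 and 3 by DESeq2. Their median log2 fold change was -0.17, against 0.004 for all genes. Mdm2, both a p53 target and the ligase that p19Arf binds, was at 100.3 to 122 CPM with p53 wt and 109 to 123 CPM with p53 ko, with a log2 fold change of 0.06 (SE 0.13).

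Polycomb proteins and other regulators of Cdkn2a gave 0 of 27 by edgeR, with 3 at an unadjusted p under 0.05 and 1, Bmi1, by DESeq2. Over all genes tested, the last 2 were 15.5% and 1085 of 17470. Bmi1, the Polycomb protein best known for silencing Cdkn2a, was at 89.7 to 368 CPM (median 188) with p53 wt and 39.8 to 69.7 CPM (median 56.1) with p53 ko, without overlap. Its log2 fold change was -1.82 (SE 0.31), with an adjusted p of 0.0512 in edgeR's quasi-likelihood test, just over the threshold. Ezh2, the methyltransferase of the other Polycomb complex, gave -0.13 (SE 0.19). Of the Cdkn2a partners in G1, Cdk4 (0.03, SE 0.23), Cdk6 (0.07, SE 0.25), Ccnd2 (0.46, SE 0.30), Ccnd3 (0.29, SE 0.20) and Rb1 (0.06, SE 0.25) had log2 fold changes that did not pass. Myc gave -0.43 (SE 0.35), Zbtb17 0.26 (SE 0.17) and Skp2, which targets p27Kip1 for destruction, 0.23 (SE 0.14).

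In p53-ko mice, leukaemias with ICN differed from those without ICN most in Cdkn1c among the 9 genes. Without ICN, Cdkn1c was at 22.2 and 23.4 CPM in both Miz1 wt libraries and at 0.526 and 6.22 CPM in the Vav libraries. With ICN, the 4 matched libraries were at 0.527 to 1.33 CPM. The log2 fold change of ICN against no ICN was -3.43 (SE 0.66), and the Vav groups overlapped through the library at 0.526 CPM. It was -4.41 (SE 0.97) in Miz1 wt and -2.45 (SE 0.90) in Vav. Leaving out single libraries gave -3.90 to -2.08.

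Cdkn2a, Gm12609 and Gm12610 had higher fitted levels without ICN, and Cdkn2b did not. Cdkn2a was at 38.9 to 148 CPM without ICN and 35.7 to 78.8 CPM in the matched libraries with ICN, with a log2 fold change of -0.78 (SE 0.44). Gm12609 was at 1.55 and 1.42 CPM in Miz1 wt and 4.14 and 2.21 CPM in Vav without ICN, all above the matched libraries with ICN, and the log2 fold change was -1.26 (SE 0.53). Gm12610 was at 0.626 and 0.703 CPM in Miz1 wt and 3.02 and 1.48 CPM in Vav, with a log2 fold change of -1.24 (SE 0.46). Cdkn2b, at 1.43 and 0.258 CPM in Miz1 wt and 1.19 and 1.79 CPM in Vav, gave 0.24 (SE 0.53), with both Miz1 wt libraries with ICN above both without, and from -0.20 to 1.04 when single libraries were left out. By these values the noncoding genes were highest in the Vav libraries without ICN, where Cdkn2a was also highest.

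Cdkn2d was at 45.3, 55.9, 34.7 and 60.0 CPM without ICN, and the log2 fold change was 0.61 (SE 0.23). Cdkn1b was at 58.1 and 106 CPM in Miz1 wt and 207 and 73.0 CPM in Vav, and gave 0.49 (SE 0.32). Cdkn1a gave -0.34 (SE 0.71), and from -1.14 to 1.15 when single libraries were left out. The value of 1.15 was without Vav replicate 2 without ICN. Its levels without ICN were 1.75 and 2.84 CPM in Miz1 wt and 0.229 and 3.37 CPM in Vav. Cdkn2c (-0.12, SE 0.15) was at 148 to 225 CPM. By the edgeR test 1 of the 9 genes, Cdkn1c, was called lower and 0 higher, against 24% of all genes called in either direction. Nothing is read from that count. Markers of other cells moved with this comparison. By edgeR, all 8 erythroid and all 8 neutrophil markers were higher with ICN, as were 6 of 8 B cell, 5 of 7 NK and cytotoxic and 3 of 10 macrophage markers. Of endothelial and stromal markers 2 were higher and 2 lower, and 2 of 13 T cell markers and 1 of 4 tested thymic epithelial markers were lower. The part of these cells in the result was not tested.

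The lists were also counted between ICN and no ICN, where 24% of all genes tested were called. Of 113 tested list genes, 16 rose and 17 fell by the edgeR quasi-likelihood test with Benjamini-Hochberg adjustment, which is read against that share and not as particular to the lists. Of 9 G1 cyclins and kinases, Ccnd2 rose by a log2 fold change of 3.59 (SE 0.41, adjusted p = 0.0002) and Ccne1 by 1.66 (SE 0.36), while Ccnd1 changed by -5.52 (SE 0.89). Ccnd1 was at 9.25 to 297 CPM without ICN and 2.28 to 5.94 CPM with p53 ko and ICN, Lck libraries included. Of 13 Rb and E2F genes, 4 rose and 0 fell. Tfdp2 (1.56), E2f2 (1.07) and E2f4 (0.64) led by adjusted p. Skp2, which marks p27Kip1 for turnover, fell by 0.85 (SE 0.17) on the log2 scale, and Fbxw7, the ligase for cyclin E, Myc and Notch, rose by 0.82 (SE 0.18).

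Of 27 regulators of Cdkn2a tested, against the same 24% of all genes, 2 rose (Zbtb7a and Eed) and 7 fell, among them Runx1 at -1.76 (SE 0.33) and Phc1 at -1.10 (SE 0.26). Bmi1 (-0.47, SE 0.37) did not pass. Of 21 p53 targets, 3 rose and 2 fell, a share near the 24% of all genes. Pmaip1, a death gene, was at 4.45 to 24.9 CPM with p53 ko and ICN, Lck libraries included, and 0.549 to 1.61 CPM without ICN. Tnfrsf10b gave -1.94 (SE 0.49) and Rrm2b -0.90 (SE 0.23). Of 16 Miz1, Myc and TGF-beta genes, 2 rose and 4 fell, among them Tgfbr1 at -2.02 (SE 0.31) and Zbtb17, which encodes Miz1, at -0.86 (SE 0.21). Gfi1b and Klf6 rose, and Gfi1b is itself an erythroid gene. Of 9 genes tested in the imprinted domain around Cdkn1c, Slc22a18 fell (-3.67, SE 1.03), and Phlda2 was called higher at levels of at most 0.242 CPM. Slc22a18 was also low, at 0 to 0.121 CPM with p53 ko and ICN, Lck libraries included, and 0.137 to 1.58 CPM without ICN.

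DeltaPOZ was compared with Miz1 wt over 3 backgrounds. Among the 9 genes the lowest averages were those of Cdkn1c and Cdkn1a. By the edgeR test 0 of the 9 were called, against 0.0172% of all genes. An unadjusted p under 0.05 was reached by 1 of the 9, against 4.92% of all genes. DESeq2 called 0 of the 9 and 127 of all 17470 genes. For Cdkn2b, a known Miz1 target, the log2 fold change averaged over 3 backgrounds was -0.40 (SE 0.40). With ICN and p53 wt both deltaPOZ groups lay below Miz1 wt, at 0.0903 to 0.158 against 0.275 and 0.446 CPM, on 4 to 23 reads a library, and the log2 fold change was -1.41 (SE 0.67). It was -0.61 (SE 0.64) with ICN and p53 ko, and 0.84 (SE 0.76) without ICN, so the direction was not shared. Cdkn1a, another Miz1 target, gave an average of -1.05 (SE 0.52). That average was -0.55 without the Miz1 wt p53-ko library at 9.01 CPM and -2.04 without Vav replicate 2 without ICN. With ICN and p53 ko alone the value was -2.61 (SE 0.83), where the other Miz1 wt library, at 1.93 CPM, lay within the range of the Lck libraries. It was -0.20 (SE 0.87) with p53 wt and -0.35 (SE 0.99) without ICN.

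Cdkn1c averaged -1.18 (SE 0.45), or -2.06 without Vav replicate 2 without ICN. It was -2.75 (SE 0.90) without ICN, where both deltaPOZ libraries lay below both Miz1 wt libraries. With ICN it was -0.77 (SE 0.74) in p53 ko and near 0 in p53 wt. Cdkn2a averaged 0.16 (SE 0.34), with -0.73 (SE 0.57) in ICN p53 wt, 0.31 (SE 0.54) in ICN p53 ko and 0.89 (SE 0.62) without ICN. Averages of Cdkn2c (-0.16, SE 0.11), Cdkn2d (-0.03, SE 0.17), Cdkn1b (0.06, SE 0.24) and Gm12609 (-0.45, SE 0.40) stayed within 2 standard errors of 0. The average of Gm12610 was 0.04. Those of the noncoding genes join opposite values. Gm12609 was at -1.91 (SE 0.76) in ICN p53 wt, -0.54 (SE 0.63) in ICN p53 ko and 1.09 (SE 0.735) without ICN. For Gm12610 these were -1.58 (SE 0.65), -0.05 (SE 0.56) and 1.75 (SE 0.65). The p53-wt values rest on 0 to 9 reads a library. Of the 113 list genes tested, 0 passed for deltaPOZ by edgeR, with 2 at an unadjusted p under 0.05 and 0 by DESeq2. Over all genes tested, these were 0.0172%, 4.92% and 127 of 17470. Zbtb17 itself was at -0.25 (SE 0.15). Of the B cell markers, 7 of 8 had an unadjusted p under 0.05, 3 were higher by DESeq2 and 0 passed by edgeR, with a median log2 fold change of 1.78. Their part in the values above was not tested.

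**Figure D4:**
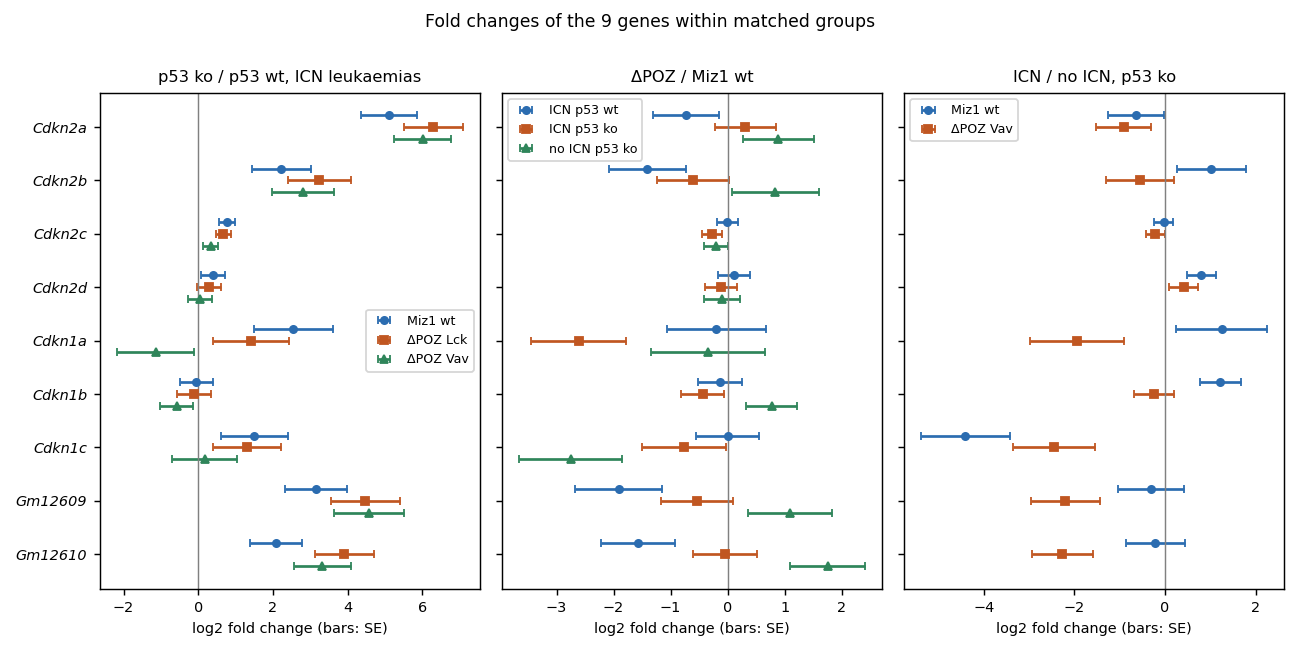
Log2 fold changes (bars show the SE) of the 9 genes for p53 ko against p53 wt in each Miz1 group, for deltaPOZ against Miz1 wt in each background, and for ICN against no ICN. Cdkn2a lies between 5.11 and 6.30 in all 3 p53 comparisons, while deltaPOZ values fall on both sides of 0. Values of Gm12609 and Gm12610 that involve p53 wt rest on few reads. Bars of values near 0 are unreliable.

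The deltaPOZ effect was compared between p53 ko and p53 wt, and Lck with Vav, both among leukaemias with ICN. Both comparisons called 0 of the 9 genes by edgeR, against 0% of all genes in each. DESeq2 called 0 of the 9 in each, and 29 and 15 of all 17470 genes. At an unadjusted p under 0.05 were 0 and 1 of the 9, against 2.6% and 3.15% of all genes. The difference between p53 ko and p53 wt in the deltaPOZ effect was -2.41 (SE 1.25) for Cdkn1a, or -0.86 without the Miz1 wt p53-ko library at 9.01 CPM, 1.04 (SE 0.79) for Cdkn2a and 0.80 (SE 0.94) for Cdkn2b on the log2 scale. For Lck against Vav, Cdkn2d had 0.62 (SE 0.23), with 4 Lck libraries at 81.1 to 107 CPM above 4 Vav libraries at 54.1 to 67.6 CPM. Cdkn2a gave -0.74 (SE 0.47) and Cdkn1a 0.57 (SE 0.72). The 113 list genes gave 0 in each by edgeR and by DESeq2, with 2 and 3 at an unadjusted p under 0.05. With 2 mice a group these standard errors are wide, and a p that misses the threshold does not show that groups are alike.

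Genes whose levels followed the members most closely over the 16 libraries were sought among 12308 genes, by Pearson's r of log2 CPM. These are descriptions, since the libraries fall into groups by p53 and ICN and are not independent points. For Cdkn2a the highest were Eif5al3-ps (0.98), Gm10282 (0.97), Sfn (0.94), Hmgn2-ps1 (0.93) and Exosc10 (0.92). Sfn encodes 14-3-3 sigma, a cell-cycle protein and known p53 target, and was at 3.25 to 5.38 CPM with p53 wt and 7.14 to 14.4 CPM with p53 ko. Eif5al3-ps and Hmgn2-ps1 are processed pseudogenes, whose reads can come from the parent gene. For Cdkn2b they were Sfn (0.91), Cdkn2a (0.87), Gm10282 (0.87), Eloa (0.85) and Syf2 (0.84). Of these, 2 of the 5 for Cdkn2a and 4 of the 5 for Cdkn2b, Cdkn2a itself among them, lie on chromosome 4. So do 6.3292% of the eligible genes. Of the genes below for Cdkn1a and Cdkn1c, which are on other chromosomes, 2 of 5 and 1 of 5 also lie there.

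For Cdkn1c the highest were Spata13 (0.93), Tmx2, Rapgef3, Spns1 and the kinase gene Lck (each 0.92). The highest level of each was in a library without ICN. For Cdkn1a, Plpp3 (0.79), Shb (0.76), Fads2 (0.74), Gm10138 (0.74) and Ppard (0.73) were highest, and lower than those for the other genes.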

How the data were processed

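RNA was sequenced from 16 T-ALL libraries. The deposited values are raw counts per gene, 1 table per mouse. Per the submitters' processing notes, TopHat2 2.0.10, SAMtools, HTSeq and DESeq were used with mm10 and GRCm38. Neither the annotation release nor the strand setting of the counter is stated in the labels. The libraries were made with a stranded kit, per the labels' protocols. The 5 totals at the end of each table name no gene and entered neither library sizes nor tests. Alignments that were not unique made up 45.81% to 63.74% of a library, and genes kept 20.57% to 39.64%. GENCODE M21 named 40254 of 41214 identifiers.

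The fit used edgeR 4.0.16 (R 4.3.3) with TMM factors (0.952 to 1.048), filterByExpr (17470 genes), 1 mean for each of 8 groups and 8 residual degrees of freedom. Each contrast had a quasi-likelihood F test with Benjamini-Hochberg adjustment over all genes (threshold 0.05). Standard errors were derived from F and the log2 fold change, and are unreliable where that change is near 0. TMM-scaled CPM gives the levels, and the prior count for log2 CPM was 2. The procedure was tested on simulated counts. Each group has 2 mice, and the spread of a gene was estimated from mice within all 8 groups together, with information shared between genes. P-values rest on that pooled spread and not on the spread within any single group.

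The 9 genes, the lists and the tests were chosen with earlier results of these data known. Named genes were all 9 members, fixed anchor genes and up to 3 genes per list, comparison and direction by adjusted p, neighbours within 1 Mb of Cdkn2a at a mean of at least 1 CPM in a group, and the 5 genes most like each of Cdkn1a, Cdkn1c, Cdkn2a and Cdkn2b among genes with a mean log2 CPM of at least 0. A gene that this rule names is not reported here. Alternatives were DESeq2 size factors, no filter on low counts, the DESeq2 1.42.0 test, only the compared groups in the fit, and leaving out each library.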

Additional observations from a re-analysis of the deposited data

Results flagged for a closer look

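Cdkn1a at 9.011 CPM in ICN Miz1 wt p53 ko replicate 2 lay far above the other 5 p53-ko libraries with ICN, the next at 2.36 CPM. Over 27 groups of samples 1 was singled out, and chance gives about 1 in 20.

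The following differences between effects were not tested: in each, all libraries of 1 contrast moved one way and all of the other the opposite way. Of 63 pairs of contrasts compared, 5 showed this, and nothing is read from that count. Lack of overlap was common among all 17470 genes tested. For p53 it held for 30.967% in Miz1 wt, 48.804% in Lck and 36.377% in Vav. For ICN it held for 50.538% in Miz1 wt and 52.662% in Vav. For deltaPOZ it held for 11.402% with ICN and p53 wt and 26.045% without ICN. For Cdkn1a, the p53 effect was 2.55 in Miz1 wt and 1.41 in Lck but -1.15 in Vav on the log2 scale, which are differences of 3.692 and 2.559. For Cdkn2b, the ICN effect was 1.02 in Miz1 wt and -0.55 in Vav, a difference of 1.568. For Gm12609, the deltaPOZ effect was -1.91 with ICN and p53 wt and 1.09 without ICN, a difference of -3.002. For Gm12610 it was -1.58 and 1.75, a difference of -3.328. The p53-wt values of Gm12609 and Gm12610 rest on 0 to 9 reads a library.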

How the results depend on the processing

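Counts of genes called depended on the setting, and no log2 fold change of the 9 genes that had been called changed its direction. For p53 ko against p53 wt, 34 genes were called, but 1588 without a filter on low counts, 1085 by DESeq2 and 149 with only the compared groups in the fit. Of the 9 genes, 3 were called there, and 5 in each of these 3 settings, where Cdkn2b and Cdkn2c joined. The genes were chosen with such results known, so nothing is read from these calls or from whether a call was kept. Leaving out each library gave 2 to 132 genes and 1 to 4 of the 9. Cdkn2a was called in each of these fits, but Gm12609 and Gm12610 lost their call without either Miz1 wt or either Lck library with p53 wt, or without Lck p53 ko replicate 2. Gm12610 also lost it without Vav p53 wt replicate 1, Miz1 wt p53 ko replicate 1, Lck p53 ko replicate 1 or Vav p53 ko replicate 2. For ICN, 4194 genes were called, 5168 without the filter, 5332 by DESeq2 and 2360 with only the compared groups. Leaving out each library gave 2524 to 4643 genes. Of the 9 genes 1 was called, 3 without the filter and 3 by DESeq2, and 1 to 2 when leaving out a library. For deltaPOZ, 3 genes were called, 502 without the filter, 127 by DESeq2 and 0 to 20 leaving out a library. For the difference by p53 status 0 genes were called, 378 without the filter and 29 by DESeq2. For Lck against Vav 0 were called, 277 without the filter, 15 by DESeq2 and 0 to 1 leaving out a library. The cause was not tested. The deltaPOZ comparison uses all groups, so a fit of only the compared groups is the same fit. Scaling by DESeq2 size factors shifted the median of all genes by at most 0.011 on the log2 scale. No paired analysis was made, since each library is from a different mouse and the labels name no pairs.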
